A study of Mus musculus with 12 samples.

Results

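The genes described here are 40 listed genes of the amino acid stress response that is run by the transcription factor ATF4, and they were followed across 4 Foxo1 genotypes of a mouse Burkitt lymphoma cell line. They were chosen by name: ATF4 with its partner and target factors, stress effectors, enzymes of serine, glycine, asparagine, proline and cysteine synthesis, amino acid transporters, and cytosolic tRNA synthetases. Each was matched to the array by the gene symbol of the platform annotation and read from 1 probe set, the brightest on average over the 12 arrays. On the array 39 of the 40 were named, out of 18194 genes, with Pycr1 (proline synthesis) the exception. The test across genotypes covered 37 of them among 11458 genes. Vldlr (a lipoprotein receptor) and Slc7a11 (the cystine transporter subunit) lay below the array median in all 12 arrays, at group means of 5.13 to 5.19 and of 4.61 to 4.80 on the log2 scale, and were not tested.

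RNA was hybridised to 12 Affymetrix arrays, 3 for each genotype of the line BL#19, which had been edited with CRISPR/Cas9. The line carried 2 kinds of mouse Foxo1 allele, the wild type (wt) and the mutant T24P (mt), and each was intact (+) or knocked out (-). The groups were therefore wt+/mt+ with both alleles (arrays 1 to 3), wt-/mt+ with the mutant allele alone (arrays 4 to 6), wt+/mt- with the wild-type allele alone (arrays 7 to 9) and wt-/mt- with neither (arrays 10 to 12), numbered as in the sample titles. All came from 1 lymphoma line, 1 descriptive field of the labels speaks of germinal center B cells instead, and nothing in the labels tells whether arrays of 1 genotype are separate clones or cultures. The p-values therefore describe the spread among these 12 arrays, and that spread may be technical.

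When amino acids run short or proteins misfold, kinases phosphorylate the translation factor eIF2. Most translation then slows, while the ATF4 mRNA is translated more. ATF4 pairs with C/EBP family proteins at a composite DNA site in its target genes, which rebuild amino acid supply, charge tRNAs and, through CHOP and TRIB3, limit the response itself. Because ATF4 is controlled largely at translation, its own mRNA level need not follow its activity.

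The composite site was searched as TGATGNAAN, on both strands, in RefSeq promoters of GRCm38.p6, each of which runs from 250 bases before to 50 bases after a gene's start. Of the 33 members with a promoter entry, 13 held at least 1 match (39.39% of these genes), against 4.5% of all 27025 genes with an entry. Among the tRNA synthetases 5 of 8 members held it, while 0 of 5 other cytosolic and 0 of 14 mitochondrial synthetase genes did. Of 15 other genes of amino acid and one-carbon metabolism and their regulators 5 held it (33.33%). The match is a description of the letters and does not show binding. The 6 promoters below belong to members of 4 roles and hold the match before the start. They are written 5′ to 3′ on the gene's strand with the match in capitals, and the matches in Chac1, Atf3, Aars, Gars and Tars read the motif on the opposite strand.
Asns, chr6:7693210-7693257, minus strand: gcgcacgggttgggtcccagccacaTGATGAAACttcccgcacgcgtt
Chac1, chr2:119351023-119351081, plus strand: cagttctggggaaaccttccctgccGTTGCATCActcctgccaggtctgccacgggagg
Atf3, chr1:191183411-191183469, minus strand: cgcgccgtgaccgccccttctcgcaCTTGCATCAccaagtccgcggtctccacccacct
Aars, chr8:111033704-111033762, plus strand: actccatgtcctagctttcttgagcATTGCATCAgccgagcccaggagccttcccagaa
Gars, chr6:55037945-55038000, plus strand: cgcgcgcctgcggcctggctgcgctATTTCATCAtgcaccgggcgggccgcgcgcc
Tars, chr15:11399659-11399699, minus strand: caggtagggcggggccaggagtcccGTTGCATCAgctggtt
The match began 23 bases before the start in Asns, 31 in Gars and 16 in Tars, and more than 100 bases before it in Chac1, Atf3 and Aars. In Trib3 (TTTACATCA), Yars (TGATGCAAC) and Iars (ATTGCATCA) it lay just after the start, within the transcribed part. Cars, Cth, Eif4ebp1, Nars, Slc1a5, Slc7a5 and Wars had no promoter entry.

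Array medians lay between 6.08 and 6.25 on the log2 scale, and no 2 arrays held identical values. Foxo1 itself fell by 1.65 after loss of both alleles (standard error, SE, 0.28, limma adjusted p = 0.00473) and did not pass the test after loss of either allele alone. The 6 tested B cell markers averaged 11.6 to 11.9 in the arrays of the 3 genotypes with a Foxo1 allele, and 11.92, 11.14 and 11.11 in arrays 10, 11 and 12. After loss of both alleles 0 of the 6 had a positive change, against 6350 of all 11458 tested genes. Of the 6, 1 was called lower, against 4.8% of all tested genes: Cd79b, a B cell receptor subunit, by 0.96 (limma adjusted p = 0.0217). Markers of T, NK, myeloid, stromal, erythroid and endothelial cells averaged 4.9 to 6.0. The arrays of wt-/mt- were more unlike each other than those of any other genotype: the median SD over all tested genes was 0.261 there, against 0.095 in wt+/mt+, and medians of whole chromosomes also differed, such as -0.66 for chromosome 12 in array 10 and -0.27 for chromosome 8 in array 12, relative to wt+/mt+. The test therefore gave each genotype its own weight. The difference between the 3′ and 5′ actin probe sets, a sign of RNA quality, was 2.17 and 1.71 in arrays 7 and 8 of wt+/mt- and 1.06 to 1.29 in the other 10 arrays. The spike controls bioC, bioD and cre were higher in all 6 arrays with the mutant allele (arrays 1 to 6) than in the 6 without it, array 9 included. For bioC the ranges were 11.31 to 11.56 and 10.53 to 11.06, and for cre 14.85 to 14.96 and 14.41 to 14.67. The controls lys and phe went the other way. Lys ran from 5.75 to 7.18 with the mutant allele and from 7.31 to 8.30 without it. For phe the ranges were 6.45 to 7.55 and 7.41 to 8.27, with overlap. The part of this in the comparisons across the mutant allele was not tested.

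Without any Foxo1 allele, 36 of the 37 tested genes had no called change in the mean. Shmt2, the mitochondrial enzyme that turns serine into glycine and a one-carbon unit, rose 2.30-fold. Of the 37 tested members, 1 rose and 0 fell (limma, adjusted p under 0.05), and 4 had an unadjusted p under 0.05. Over all tested genes 2.76% rose and 4.8% fell, and 25.5% had an unadjusted p under 0.05. When the arrays were centred on their median, 236 genes rose and 763 fell, in place of 316 and 550. The median change of the members was 0.02 on the log2 scale, against 0.05 over all tested genes, and their changes ran from -0.71 (Ddit3) to 1.20 (Shmt2).

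**Figure D1:**
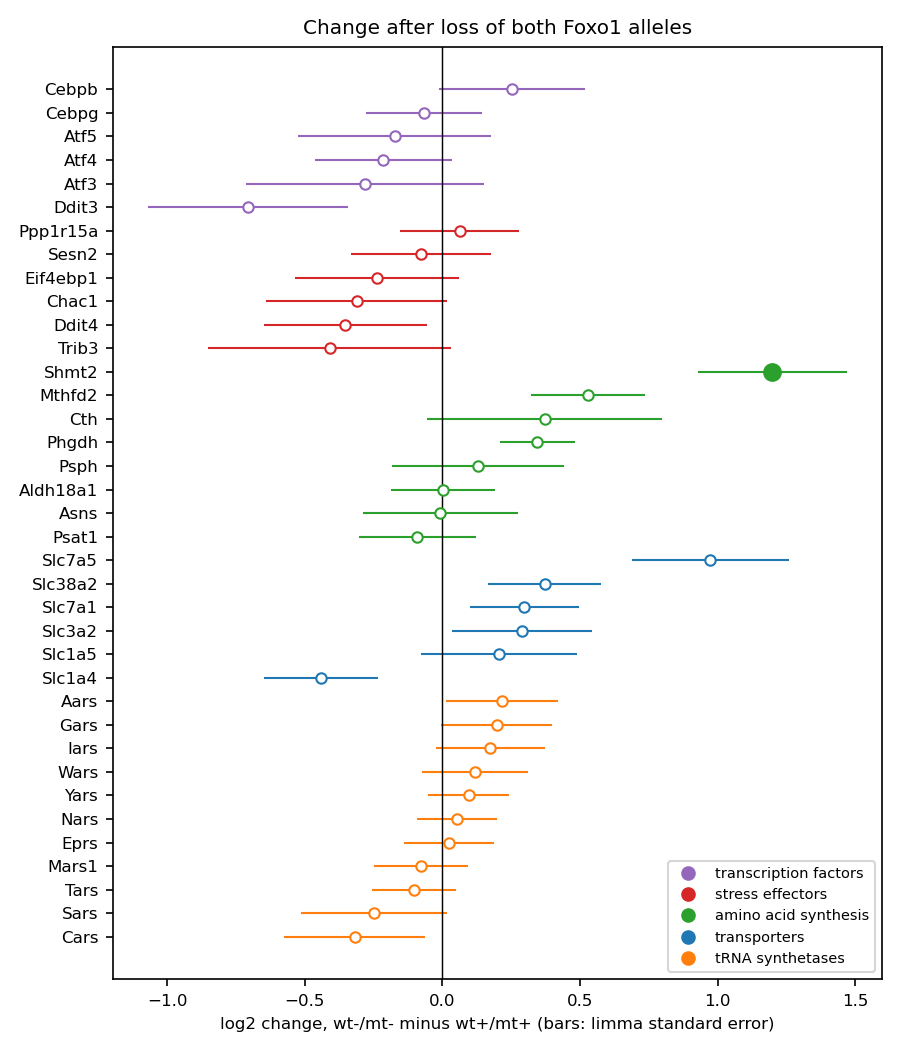
Log2 change of each of the 37 tested members in wt-/mt- relative to wt+/mt+ (horizontal axis), with the limma standard error as bar and colour for the role. The filled point is Shmt2 (1.20), the 1 member called. By the probe sets used, the transcription factors and stress effectors have medians of -0.20 and -0.28, and their standard errors are among the widest.

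Shmt2 had log2 levels of 10.22, 10.13 and 10.32 in wt+/mt+ and of 10.30, 10.14 and 10.26 in wt-/mt+. It had 10.20, 10.52 and 10.82 in wt+/mt-, and 11.08, 12.20 and 10.99 with neither allele (wt-/mt-). All 3 wt-/mt- arrays lay above the other 9, with array 11 far above arrays 10 and 12. The change was 1.20 against wt+/mt+ (SE 0.27, adjusted p = 0.0203) and 1.19 against wt-/mt+ (SE 0.28, adjusted p = 0.0209). Against wt+/mt- it was 0.91 (SE 0.29, adjusted p = 0.106), which was not called, although no wt-/mt- array overlapped that genotype. All 4 probe sets of Shmt2 were higher in wt-/mt- than in wt+/mt+, by 0.37 to 1.29, and 3 of the 4 were called in a fit over all probe sets. Without array 11 the change was 0.81 and lost its call (adjusted p = 0.174).

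None of the other listed enzymes of mitochondrial one-carbon and serine metabolism passed the adjusted test. Mthfd2, the next mitochondrial folate enzyme, differed by 0.53 (SE 0.21, limma adjusted p = 0.135), with 11.93, 12.60 and 11.99 in wt-/mt- against 11.65, 11.62 and 11.66 in wt+/mt+. Mthfd2 lies on chromosome 6, whose medians in arrays 10, 11 and 12 were 0.06, 0.33 and 0.22 relative to wt+/mt+. Phgdh, which opens serine synthesis, differed by 0.34 (SE 0.14, adjusted p = 0.140), with 14.36, 14.18 and 13.89 against 13.82, 13.80 and 13.78. In both, the 3 wt-/mt- arrays lay above the 3 wt+/mt+ arrays. Psat1 and Psph, the other 2 enzymes of serine synthesis, had changes of -0.09 and 0.13 with overlapping arrays.

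Slc7a5, the transporter LAT1 that carries large neutral amino acids, had the largest change among the transporters. Its levels were 10.90, 12.17 and 11.28 in wt-/mt- and 10.65, 10.40 and 10.39 in wt+/mt+. The 3 wt-/mt- arrays lay above all 3 wt+/mt+ arrays and above the wt-/mt+ arrays (10.61, 10.33 and 10.57), and array 10 overlapped wt+/mt- (10.38, 10.81 and 10.93). The change of 0.97 (SE 0.29) had a limma adjusted p of 0.0585 and was not called. It was called after quantile normalization, after centring per chromosome, without the filter on dim genes and with equal weights. It was not called with arrays centred on their median, with the mean of probe sets or without arrays 7 and 8. Of the fits that leave out 1 array, only those without array 1 and without array 7 called it. Slc3a2, its heavy-chain partner, differed by 0.29. Of the 6 tested transporters 5 had positive changes by the probe sets used, against 6350 of all 11458 tested genes. Slc1a4, a transporter of small neutral amino acids, was the other, at -0.44, and 0 of the 6 were called. Other probe sets that passed the filter on dim genes did not all have the same sign. They changed by -0.14 (Slc1a5), -0.06 and 0.41 (Slc38a2), -0.26 and 0.11 (Slc1a4) and 0.09 (Slc7a1).

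Among the transcription factors 0 of 6 were called. Atf4 was at 12.42, 12.48 and 12.73 in wt+/mt+ and at 12.45, 12.61 and 12.55 in wt-/mt+. It was at 12.29, 12.52 and 12.67 in wt+/mt-, and at 12.26, 12.96 and 11.76 with neither allele (wt-/mt-). The 3 wt-/mt- arrays enclosed the range of the other 9, below and above. The change in Atf4 after loss of both alleles was -0.22 (SE 0.25, adjusted p = 0.621). A second probe set of Atf4 gave -0.44 (adjusted p = 0.123 in the fit over all probe sets). That set was called lower in wt+/mt- than in wt+/mt+ (-0.42, SE 0.097, adjusted p = 0.0273) and higher in wt-/mt+ than in wt+/mt- (0.42, adjusted p = 0.0322), where the brighter set was not called. Ddit3, which encodes the stress factor CHOP, was at 9.80, 11.12 and 9.17 in wt-/mt- and between 10.23 and 10.93 in the other 9 arrays. Its change of -0.71 (SE 0.36, adjusted p = 0.245) was not called. A second, dimmer probe set of Ddit3 fell by 1.81 (SE 0.37, adjusted p = 0.0106 in the fit over all probe sets), so the probe sets of this gene disagree on the call, though not on the direction.

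The stress effectors were not called either, and their wt-/mt- arrays spread widest. Trib3, a pseudokinase that is induced by ATF4 and CHOP and restrains them, was at 8.29, 10.54 and 7.65 in wt-/mt- and between 8.98 and 9.60 in the other 9 arrays. Array 11 was thus above, and arrays 10 and 12 below, every array of the other genotypes. Its change of -0.41 (SE 0.44, limma adjusted p = 0.593) is a mean over values that differ by 2.90 on the log2 scale. The second probe set of Trib3 changed by 0.02. Other sets of Sesn2 (0.40) and Eif4ebp1 (0.13 and 0.48) also had positive changes, where the sets used had -0.08 and -0.24. The negative direction of these 3 genes thus depended on the probe set.

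The tRNA synthetases had small mean changes, between -0.32 and 0.22, with 0 of 11 called after loss of both alleles. Cars, which charges cysteine tRNA, had the largest, at -0.32, with 9.01, 9.73 and 8.70 in wt-/mt- against 9.31, 9.47 and 9.62 in wt+/mt+. Array 11 lay above and arrays 10 and 12 lay below all 3 wt+/mt+ arrays. A second, dimmer probe set of Cars went the other way, with a change of 0.17 and a level in array 11 minus array 12 of -0.19. Gars and Tars, which charge glycine and threonine tRNA, had changes of 0.20 (adjusted p = 0.571) and -0.10 (adjusted p = 0.700).

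Against the single-allele genotypes the counts were as low. The comparison of wt-/mt- with wt-/mt+ had 1 member higher (Shmt2) and 0 lower, against 2.78% and 5.27% of all tested genes, with a member median of 0.11 and 5 members (13.5%) at an unadjusted p under 0.05, against 24.6% of all genes. The comparison of wt-/mt- with wt+/mt- had 0 members called by limma, against 0.829% of genes higher and 2.65% lower, with a member median of -0.08 and 3 members (8.11%) at an unadjusted p under 0.05, against 19.6%. These comparisons share the wt-/mt- arrays with the first one. The effect of losing the mutant allele did not differ by the test between cells with and without the wild-type allele for any of the 37 members: 0 were called by limma, 5 (13.5%) had an unadjusted p under 0.05 against 17.6% of all tested genes, and over all tested genes 0.698% had a higher and 2.44% a lower interaction.

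Within wt-/mt- the members differed together between the arrays. Array 11 lay above the wt+/mt+ mean for 36 of 37 members, array 10 for 15 and array 12 for 11. Of all 11458 tested genes, 6748, 6290 and 5956 lay above it in arrays 11, 10 and 12. The median difference from the wt+/mt+ mean was 0.45 in array 11, -0.08 in array 10 and -0.42 in array 12, against 0.09, 0.05 and 0.02 over all tested genes. In the other 9 arrays this median stayed between -0.05 and 0.17. These arrays were singled out after their values were seen, and an array has no replicate of its own, so the following values carry no test.

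**Figure D2:**
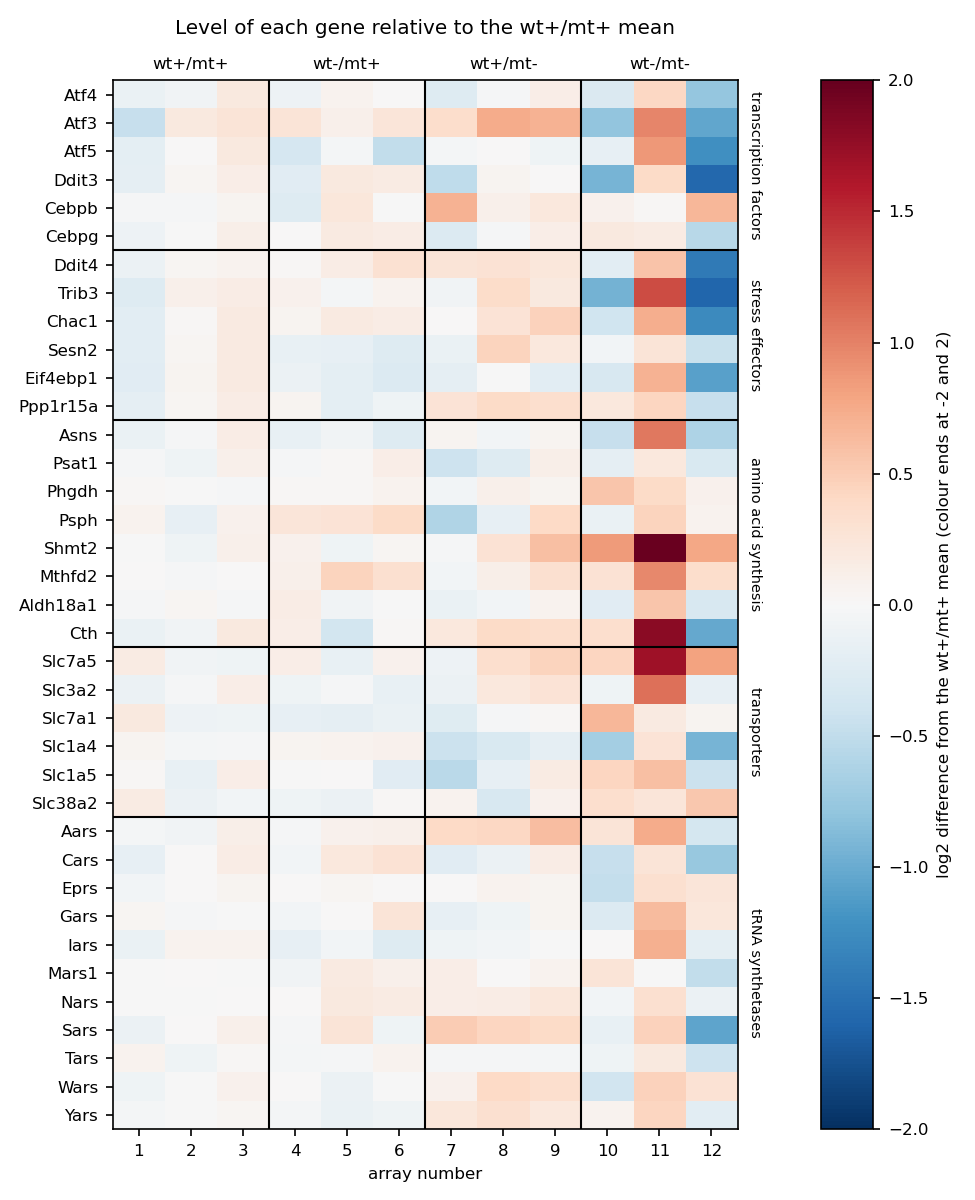
Level of the 37 tested members (rows, grouped by role) in each of the 12 arrays (columns, grouped by genotype), as log2 difference from the wt+/mt+ mean. In wt-/mt-, array 11 is red for 36 of the 37 members, while array 12 is blue for 26, most deeply among the transcription factors and stress effectors.

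Array 11 held the highest level of all 12 arrays for 28 of the 37 members, or 75.7%, against 18.5% of all tested genes. Array 12 held the lowest for 23 members, or 62.2%, against 23.2% of all genes. Both applied to 18 members, or 48.6%, against 4.61% of all genes. The order 11, 10, 12 from high to low was seen in 25 members (67.6%) and in 21% of all genes. Array 11 exceeded array 12 in 35 members (94.6%), against 55% of all genes. Cebpb (a C/EBP partner of ATF4) and Slc38a2 (the transporter SNAT2) went the other way, at -0.64 and -0.29.

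The difference between arrays 11 and 12 had a median of 0.90 on the log2 scale over the members and 0.05 over all tested genes. It passed 1, a change of 2-fold, in 17 members (45.9%) and in 7.2% of all genes. The 15 other genes of amino acid and one-carbon metabolism had a median of 0.33, passed 1 in 6 cases (40%) and had their highest level of all 12 arrays in array 11 in 46.7%. The gap was widest for Trib3, at 2.90 or 7.45-fold. Cth, the enzyme that makes cysteine from cystathionine, followed at 2.84, with 10.18, 11.66 and 8.82 in arrays 10, 11 and 12 against 9.72, 9.78 and 10.05 in wt+/mt+. Atf5, a factor induced together with ATF4, had a gap of 2.08, and Atf3, a target that feeds back on the response, of 2.02.

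Chac1, which degrades glutathione, had a gap of 2.00 between arrays 11 and 12. Ddit4 (REDD1), an inhibitor of mTORC1, had 1.99, from levels of 13.24, 14.01 and 12.02 in arrays 10, 11 and 12 against 13.32, 13.49 and 13.52 in wt+/mt+. Array 11 was above and arrays 10 and 12 were below every array of the other genotypes, which ran from 13.32 to 13.75. Eif4ebp1, a repressor of cap-dependent translation, had a gap of 1.77. Sesn2, a leucine sensor, and Ppp1r15a (GADD34), which brings the eIF2 phosphatase, had gaps of 0.70 and 0.90. Over the 6 stress effectors the median was 1.88, and all 6 ran in the order 11, 10, 12.

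**Figure D3:**
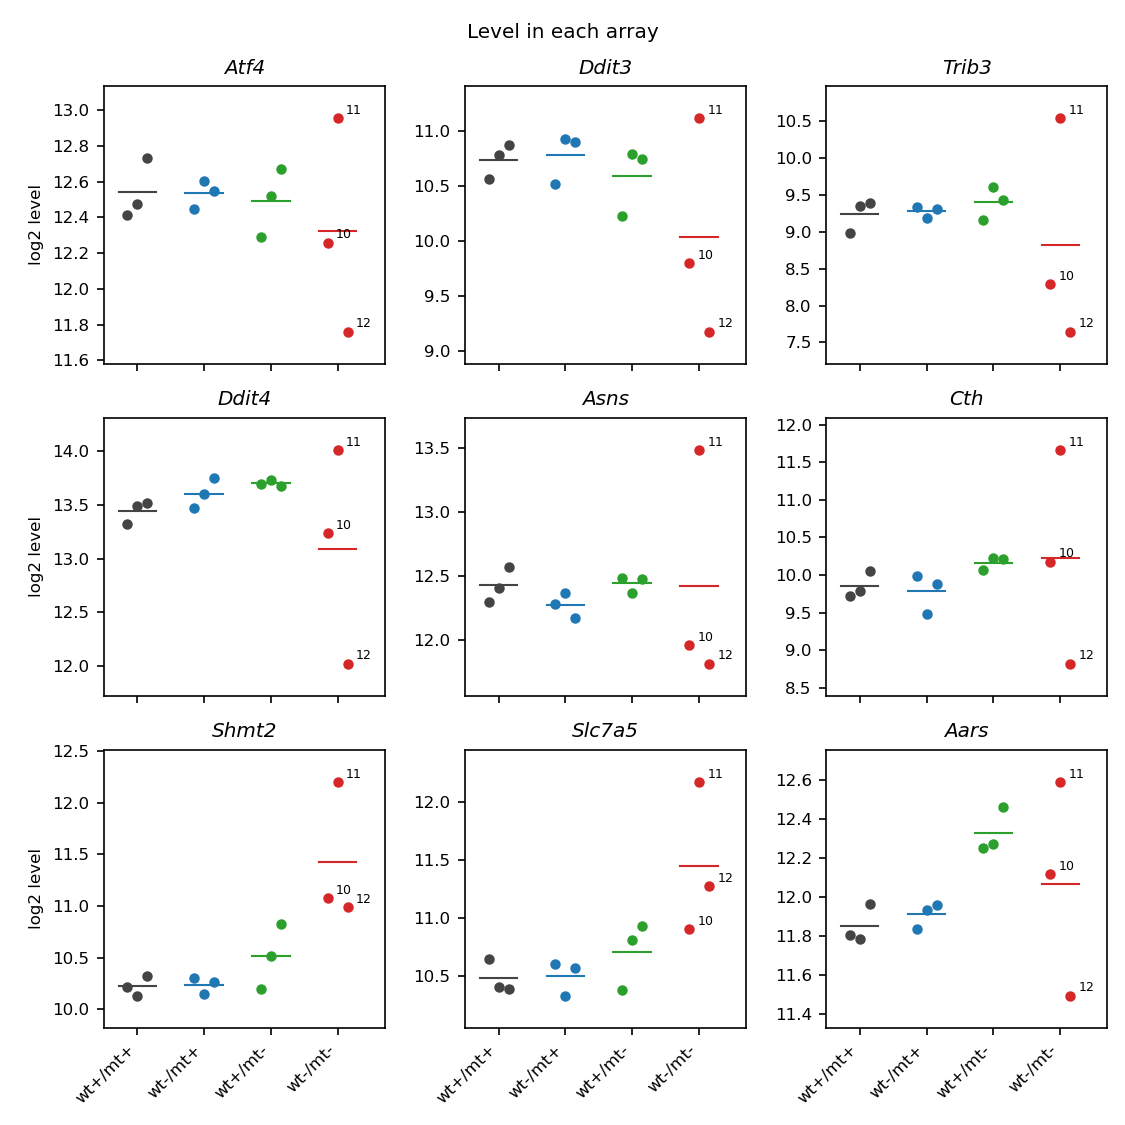
Log2 level of 9 members in every array (points) and the mean per genotype (line), with the wt-/mt- arrays numbered. The 3 wt-/mt- arrays are spread from 7.65 to 10.54 for Trib3 and from 8.82 to 11.66 for Cth, and lie all above the wt+/mt+ arrays for Shmt2 and Slc7a5.

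Among the synthesis enzymes the median gap was 0.74. Asns, asparagine synthetase, was at 11.96, 13.48 and 11.82 in wt-/mt- and between 12.18 and 12.57 in the other 9 arrays, so array 11 was above and arrays 10 and 12 below all of them. Its mean change after loss of both alleles was -0.01. Phgdh had the smallest gap of this role, 0.29, with its highest level in array 10. Aldh18a1, which starts proline synthesis, had 0.87.

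The transporters had a median gap of 0.96 and the 11 tRNA synthetases of 0.60. Slc3a2 had the widest gap of the transporters, 1.27, while Slc7a1, the cationic amino acid transporter, was highest in array 10 and had 0.13. All 11 synthetases were higher in array 11 than in array 12, from 0.07 for Eprs to 1.51 for Sars. Sars, which charges serine tRNA, was at 12.37, 12.97 and 11.47 in wt-/mt-. Array 12 was the lowest of all arrays there, but array 7 of wt+/mt- was the highest, at 13.02. Tars was at 11.38, 11.65 and 11.05 in arrays 10, 11 and 12. Of the 3 arrays, array 10 was the lowest for Eprs, Wars and Gars, on chromosomes 1, 12 and 6, and its medians for these chromosomes were -0.31, -0.66 and 0.06 relative to wt+/mt+. In arrays 11 and 12 the medians were -0.01 and 0.04 for chromosome 1, 0.03 and -0.04 for chromosome 12, and 0.33 and 0.22 for chromosome 6. Gars was at 12.44, 13.34 and 12.95 in arrays 10, 11 and 12.

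**Figure D4:**
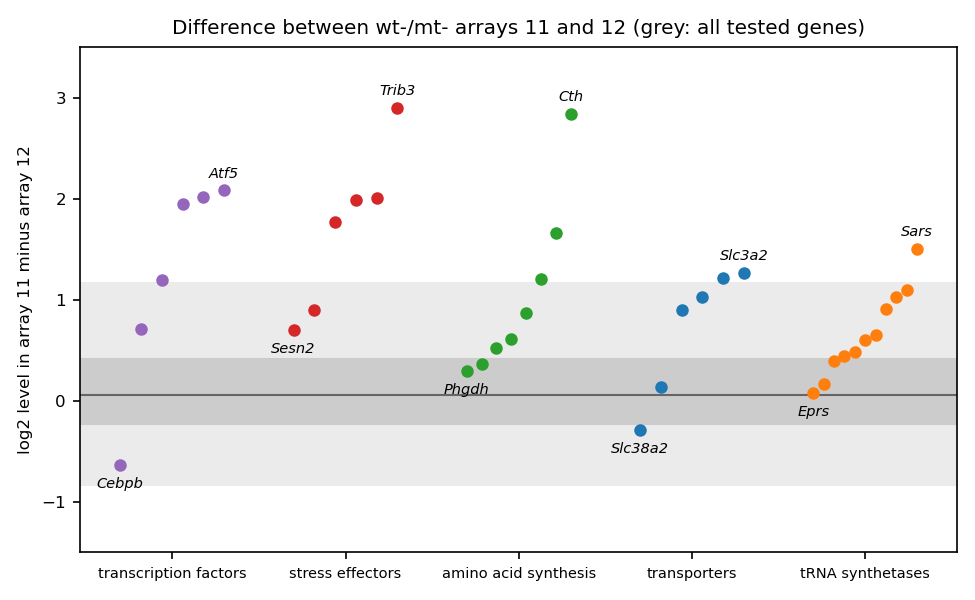
Log2 level in array 11 minus array 12 of wt-/mt- for each tested member (points, grouped by role, lowest and highest named). The grey line is the median of all 11458 tested genes (0.05), the dark band their middle 50% (-0.23 to 0.41) and the light band their 5th to 95th percentile (-0.84 to 1.16); 14 members lie above the light band.

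Several measurements bear on this gap. Taken less the median gap of all tested genes on the same chromosome, it was 2.90 for Trib3, 2.54 for Cth, 2.01 for Atf5, 1.59 for Asns and 1.16 for Atf4, and it shrank most for genes of chromosome 8, to 1.28 for Eif4ebp1, 0.60 for Aars and 0.40 for Slc7a5. Of 39 other probe sets of the members 36 were higher in array 11, with a median of 0.58, and 35 had the sign of the set used. Both other sets of Slc38a2 had positive gaps, 0.50 and 0.32, unlike the set used. The second set of Cars (-0.19) and a dim set of Eprs (-0.05) had negative gaps, unlike the sets used. The second sets of Trib3, Asns and Ddit3 had 3.08, 1.73 and 1.63. The actin 3′ to 5′ difference was 1.12, 1.07 and 1.09 in arrays 10, 11 and 12. The same difference for Gapdh was 0.48, 0.16 and 0.40, against 0.27 to 1.03 in the arrays of the other genotypes. Foxo1 was at 10.23, 9.39 and 10.34 in these arrays, lowest in array 11; the part of remaining Foxo1 RNA in the gap was not tested. The B cell marker mean given above differed by little between arrays 11 and 12 and was higher in array 10. Single markers differed more between arrays 11 and 12, in both directions. Cd79a was at 7.79 and 6.95 and Cd22 at 13.03 and 12.01, while Blnk was at 11.75 and 12.99.

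Spread of this size was seen in wt-/mt- and hardly elsewhere. The range over the 3 arrays had a member median of 0.91 in wt-/mt-, against 0.23 (wt+/mt+), 0.16 (wt-/mt+) and 0.25 (wt+/mt-). It passed 1 in 18 members of wt-/mt-, or 48.6%, against 18.4% of all tested genes, and in 1 member of the other genotypes, in wt+/mt-. The 10 tested members with the promoter match had a median gap of 1.15, the 20 with an entry but no match 0.71, and the 7 without an entry 1.03; the ranges overlapped, from 0.40 to 2.90 and from -0.64 to 2.08 in the first 2 sets.

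Loss of the mutant allele with the wild-type allele present changed 1 member by the probe sets used, Aars, which charges alanine tRNA. Its levels were 12.25, 12.27 and 12.46 in wt+/mt- and 11.80, 11.79 and 11.96 in wt+/mt+, without overlap, and the wt-/mt+ arrays lay with the latter, at 11.83, 11.94 and 11.96. The rise was 0.48, or 1.39-fold (SE 0.11, adjusted p = 0.0294). In this comparison 1 of 37 members rose and 0 fell, against 5.93% and 2.37% of all tested genes, and 8 members (21.6%) had an unadjusted p under 0.05, against 26% of all genes. Sars (0.44, adjusted p = 0.0841), Wars (0.27, adjusted p = 0.132) and Yars (0.25, adjusted p = 0.0796) were not called. The median over the 37 members was 0.05. Other probe sets of members differed in the fit over all probe sets. A dimmer set of Eif4ebp1 was called higher in this comparison (0.51, SE 0.12, limma adjusted p = 0.0275), while the set used had -0.13. The second set of Atf4 was called lower, as given above.

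Array quality moved with this genotype, as given above for the actin difference in arrays 7 and 8 and for the spike controls in arrays 7 to 9. With array 9 alone Aars was 0.61 above wt+/mt+, and the call was lost (adjusted p = 0.307), as were nearly all calls of the comparison, which fell from 679 higher and 271 lower genes to 9 and 8. Without array 8 alone the adjusted p of Aars was 0.23, without array 2 it was 0.0982 and without array 7 it was 0.0556. The call was also lost with equal weights (adjusted p = 0.327), with arrays centred on their median (0.0608) and with the mean of the 2 probe sets of Aars (0.0652), the second of which had 0.26. Centring on the median also moved the split of all calls to 317 higher and 421 lower.

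When only the wild-type allele was lost, no member passed the test. By limma 0 of 37 were called and 1, Mthfd2 (0.29, adjusted p = 0.241), had an unadjusted p under 0.05, or 2.7% against 14.6% of all genes. Of all tested genes 0.105% rose and 0.0611% fell. The member median was 0.02, and the changes ran from -0.29 (Atf5) to 0.30 (Psph, the last enzyme of serine synthesis).

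Compared directly, the mutant allele alone (wt-/mt+) gave lower values than the wild-type allele alone (wt+/mt-) for 1 called member and higher values for 0, against 4.35% and 2.94% of all tested genes. The member was Yars, which charges tyrosine tRNA, at 9.12, 9.03 and 9.08 in wt-/mt+ and 9.39, 9.48 and 9.37 in wt+/mt-, without overlap. It was lower by 0.34 (log2 change -0.34, SE 0.087, adjusted p = 0.0408). With array 9 as the only wt+/mt- array the difference was -0.29 and was not called (adjusted p = 0.629). The call held in 2 of 7 alternatives and in 6 of the 12 fits that leave out 1 array. With Yars, 9 members (24.3%) had an unadjusted p under 0.05, against 27.5% of all genes. Of the other 8, Aars (-0.42, adjusted p = 0.0541), Ppp1r15a (-0.41, adjusted p = 0.0701) and Slc1a4 (0.38, adjusted p = 0.0750) came closest, and their arrays did not overlap.

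The machinery upstream of ATF4 was read from a list of 14 tested genes of the eIF2 kinases and eIF2 factors. After loss of both alleles 1 rose and 1 fell, against 2.76% and 4.8% of all tested genes. Eif2ak3, the kinase PERK that senses misfolded protein in the endoplasmic reticulum, fell by 1.73 (SE 0.32, adjusted p = 0.00802). Its levels were 10.30, 10.30 and 11.43 in wt-/mt- against 12.36, 12.39 and 12.46 in wt+/mt+, below all other 9 arrays. It was also lower than in wt-/mt+ (-1.75) and wt+/mt- (-1.40, adjusted p = 0.0443). Without array 10 or array 11 of wt-/mt-, or with the mean of its probe sets, the first call was lost, with adjusted p up to 0.0827, and the last was lost when any 1 of 7 arrays was left out. The median gap of this list between arrays 11 and 12 was -0.14.

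Impact, an inhibitor of the amino acid sensor GCN2, rose by 0.52 (SE 0.14, adjusted p = 0.0426) against wt+/mt+ and by 0.78 (SE 0.14, adjusted p = 0.00642) against wt-/mt+. Its levels were 8.98, 9.19 and 9.46 in wt-/mt- and ran from 8.39 to 8.79 in the other 9 arrays. The first of these calls was lost in 3 of 7 alternatives, the mean of its probe sets among them (0.24), and when any 1 of 10 arrays was left out; the second held under all of them. Eif2ak4, which encodes GCN2 itself, was not called. Gcn1, a GCN2 activator, was called higher in wt+/mt- than in wt+/mt+ (0.30, SE 0.076, adjusted p = 0.0351), and Eif2ak2, the kinase PKR, lower (-0.35, SE 0.095, adjusted p = 0.0427). Both calls were lost without arrays 7 and 8. That of Eif2ak2 held in 2 of the 12 fits that leave out 1 array, and that of Gcn1 in 8 of 12 and in 3 of 7 alternatives, with a value of 0.07 for the mean of its probe sets.

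**Figure D5:**
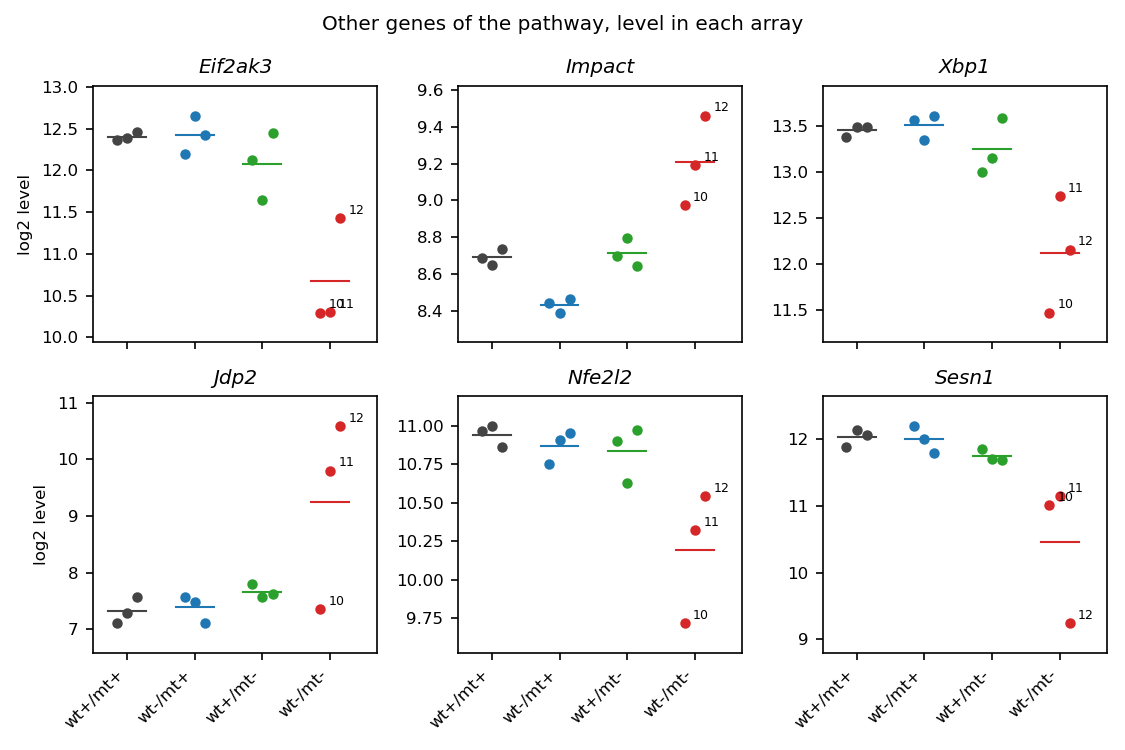
Log2 level of 6 genes of the wider pathway in every array (points) and the mean per genotype (line), with the wt-/mt- arrays numbered. Eif2ak3, Xbp1, Nfe2l2 and Sesn1 are below, and Impact above, the other 9 arrays in all 3 wt-/mt- arrays, while Jdp2 is near the other genotypes in array 10 (7.36) and higher in arrays 11 and 12 (9.80 and 10.59).

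Of 17 tested genes of the unfolded protein response 1 was called after loss of both alleles, where 2.76% of all tested genes rose and 4.8% fell. Xbp1, a transcription factor of secretory cells, fell by 1.33 (SE 0.27, adjusted p = 0.0114), with 11.47, 12.74 and 12.16 in wt-/mt- against 13.00 to 13.61 in the other 9 arrays. Without array 10 the call was lost (adjusted p = 0.092). Dnajc3, an inhibitor of PERK, was called lower against wt-/mt+ (-0.80, SE 0.22, adjusted p = 0.0439), a call that held in 2 of the 12 fits that leave out 1 array. Manf, a chaperone of the endoplasmic reticulum, was higher in wt-/mt+ than in wt+/mt- (0.56, SE 0.14, adjusted p = 0.0349), a call lost without arrays 7 and 8. The gap between arrays 11 and 12 had a median of -0.18 over this list, opposite in sign to that of the members.

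The synthetases outside the list gave a comparison by function. Their counts after loss of both alleles stand against 2.76% of all tested genes higher and 4.8% lower. Of 8 other cytosolic synthetase genes 1 fell after loss of both alleles: Qars, which charges glutamine tRNA, by 0.59 (SE 0.14, adjusted p = 0.0261), a call lost without array 2, 10, 11 or 12 and with the mean of its probe sets (-0.15). Of 16 mitochondrial ones 1 rose: Sars2, by 0.98 (SE 0.18, adjusted p = 0.00731), with 6.64, 6.67 and 6.99 in wt-/mt- and 5.72, 5.85 and 5.80 in wt+/mt+. Sars2 was also higher in wt+/mt- than in wt+/mt+ (0.72, SE 0.10, adjusted p = 0.00608). Its level lay above the array median in the 6 arrays that lack the mutant allele and below it in all 6 that carry it. Sars2 thus passed the filter on dim genes only through the genotypes without the mutant allele, and both sizes of change rest on a dim level. The spike controls bioC, bioD and cre given above split the arrays into the same groups. Its call after loss of both alleles held without each array in turn, and the wt+/mt- call was lost without arrays 7 and 8. Tars2 was lower in wt+/mt- than in wt+/mt+ (-0.47, SE 0.12, adjusted p = 0.0330) and Vars2 lower in wt-/mt+ than in wt+/mt- (-0.40, SE 0.11, adjusted p = 0.0494); both calls were lost without arrays 7 and 8. The median gap between arrays 11 and 12 was 0.35 over the other cytosolic and 0.32 over the mitochondrial synthetases.

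Among 15 other genes of amino acid and one-carbon metabolism and their regulators, Jdp2, a bZIP factor that represses AP-1 sites, rose by 1.93 (SE 0.49, adjusted p = 0.0337). It was at 7.36, 9.80 and 10.59 in wt-/mt- and at 7.11 to 7.80 in the other 9 arrays, so the rise rests on arrays 11 and 12 and was lost without either, and without array 2. Jdp2 lies on chromosome 12, whose median in array 10 is given above. Nfe2l2 (NRF2), which drives antioxidant genes, fell by 0.75 (SE 0.20, adjusted p = 0.0406), and the call was lost when any of 7 single arrays was left out. Of 9 genes of the sestrins and of amino acid sensing to mTORC1, Sesn1 fell by 1.56 (SE 0.33, adjusted p = 0.0147), at 11.01, 11.15 and 9.24 in wt-/mt- against 11.69 to 12.20 elsewhere. Without array 12 its change was -0.95, and the call held without each array in turn. Castor1, an arginine sensor, and Nprl3, a subunit of the GATOR1 complex, were lower in wt-/mt+ than in wt+/mt- (-0.51, SE 0.11, adjusted p = 0.0264, and -0.41, SE 0.11, adjusted p = 0.0498), and lost these calls without arrays 7 and 8.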

How the data were processed

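Per the submitters' processing notes and the file itself, the authors deposited log2 expression values per probe set from RMA, which normalizes across arrays; no version was given, and scanner files were not used here. Deposited values ran from 3.09 to 15.57. Of 45101 probe sets, 34958 had 1 gene symbol in the platform annotation, 932 had several and 9211 none. Each gene took its brightest probe set, kept when above the array median in at least 3 arrays. Probe sets that end in x or s, used for 8 and 4 members, can also bind related transcripts. The test was limma's (version 3.58.1, R 4.3.3; 1 mean per genotype over 12 arrays, arrayWeights with 1 weight per genotype, eBayes), with Benjamini-Hochberg adjustment over 11458 genes and calls at an adjusted p under 0.05. The fit was tested on simulated data for wt-/mt- against wt+/mt+ only. There it missed small changes and called more unchanged genes than its threshold allows, though fewer than with equal weights. The other comparisons were not simulated. Array numbers are not shared between genotypes, so nothing pairs them. Named genes were the members, all called ones, the largest change of each role, and up to 4 called genes of each wider list; Cth, Asns, Ddit4 and other members of the array 11 to 12 gap were named after their values were seen. The members and lists, of which 82 of 86 wider entries matched, were chosen with earlier results of these data known.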

Additional observations from a re-analysis of the deposited data

Results flagged for a closer look

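The effect of losing the mutant allele on Impact, an inhibitor of the amino acid sensor GCN2, differed between cells without and with the wild-type allele, by 0.75 on the log2 scale (SE 0.16, limma adjusted p = 0.0282 for the interaction). Its mean level was 8.69 in wt+/mt+ and 8.71 in wt+/mt-, and 8.43 in wt-/mt+ and 9.21 in wt-/mt-. With the mean of its probe sets the interaction was 0.26 and was not called (adjusted p = 0.378). The call was also lost without arrays 7 and 8 together (0.82, adjusted p = 0.0819), and without single arrays 3, 5, 8, 11 or 12, with values of 0.63 to 0.80.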

How the results depend on the processing

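The count of members called after loss of both alleles was 1 and became 3 with equal weights, 2 after quantile normalization, 2 with centring per chromosome, 2 with the mean of probe sets (Shmt2 higher, Ddit3 lower), 2 without the filter, and 1 to 2 without each array in turn. Against wt-/mt+ the count of 1 became 3, 2, 2 and 2 with equal weights, quantile normalization, centring per chromosome and no filter, and 1 to 2 without each array. Without array 11 the member called in both was Slc1a4, lower, in place of Shmt2. Against wt+/mt- the count of 0 became 1 with equal weights and 0 to 1 without each array. For wt+/mt- against wt+/mt+ the count of 1 became 0 with equal weights, with arrays centred on the median, with the mean of probe sets and without arrays 7 and 8, and 0 to 2 without each array. For wt-/mt+ against wt+/mt- the count of 1 became 0 with equal weights, 3 after quantile normalization and 0 with arrays centred on the median. It became 2 with centring per chromosome, 2 with the mean of probe sets, 0 without the filter, 0 without arrays 7 and 8, and 0 to 4 without each array. The 4 came without array 9, where 1045 of all 11458 tested genes were higher and 874 lower, in place of 337 and 498. After quantile normalization 241 were higher and 548 lower, with centring per chromosome 332 and 441, and with the mean of probe sets 382 and 495. The other comparisons kept 0 under all alternatives. Over all genes, equal weights gave 1396 higher and 1139 lower after loss of both alleles, in place of 316 and 550. For wt+/mt- against wt+/mt+ they gave 13 and 8 in place of 679 and 271. For wt-/mt- they gave 1117 and 1269 against wt-/mt+, in place of 319 and 604, and 728 and 942 against wt+/mt-, in place of 95 and 304. After loss of both alleles, quantile normalization gave 346 and 514, centring per chromosome 353 and 724, and the mean of probe sets 366 and 559. Without the filter 744 were higher and 771 lower, of 18194 genes. The fit over every probe set was chosen after seeing the data. Over all alternatives, 627 values of single called genes kept their direction, and 201 of them lost the call. These genes were picked because the main fit called them on the same arrays. Some alternatives, such as equal weights, leave the size of a change as it was. The kept direction is therefore no separate support. The cause of the lost calls was not tested. No paired analysis was possible because the array numbers are not shared between genotypes. With 3 arrays per genotype, and a wide spread in wt-/mt-, small changes there could not be detected.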
